A study of Homo sapiens with 28 samples.

Results

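H3K27ac regions that lie away from H3K4me3 peaks and are listed in every sorted stage of the cell cycle were examined in human embryonic stem cells. The members were selected on the deposited peaks themselves. H3K27ac peaks of the 4 fractions were merged where they overlapped by at least 1 bp. A merged region was kept when it had a peak in all 4 fractions, lay more than 2.5 kb from every H3K4me3 peak of any fraction and overlapped no H3K27me3 peak. Of 49370 merged H3K27ac regions, 3092 met the rule (6.26%), and they are called distal constant regions here. No genome sequence or gene annotation of the build of the peak lists was used, so the regions are given by their coordinates, and no sequence or nearby gene is named for them.

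The cells were human embryonic stem cells carrying the Fucci reporters, fluorescent proteins that accumulate and are destroyed at set points of the cell cycle. They were grown without serum or feeder cells in medium with heregulin, activin A, an IGF-1 analogue and FGF2, and all fractions share this line and medium. Flow sorting gave 4 fractions. Early G1 cells were those labelled DN, and late G1 cells those labelled KO2. S-phase cells carried the label AzL, and cells in G2 or mitosis (G2/M) AzH. Any run of 4 values below starts with early G1 and goes through the cycle to G2/M. Each fraction had 1 ChIP library for each of 4 histone marks and 1 4C library for each of 2 viewpoints, so no fraction has a replicate and no test between fractions was possible.

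H3K27ac is an acetyl mark placed on histone H3 by the coactivators p300 and CBP at active promoters and enhancers. Enhancers are distal elements that raise transcription of genes on the same chromosome, and they commonly carry H3K4me1, placed by MLL3 and MLL4, whereas active promoters carry H3K4me3. H3K27me3 is placed by Polycomb repressive complex 2 on the same lysine as H3K27ac, so the marks exclude each other on a single histone tail. In embryonic stem cells, distal acetylated elements are known to be bound by the pluripotency factors OCT4, SOX2 and NANOG. Chromosomes are compacted and many factors leave them in mitosis, so which elements keep their acetylation through division is a common question.

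Distance from H3K4me3 removed more regions than H3K27me3 did. Merged regions with a peak in all 4 fractions numbered 5115, and 3111 of them lay more than 2.5 kb from H3K4me3. Only 19 of these were then dropped for overlapping H3K27me3. The distal constant regions were thus 60.5% of all regions listed in every fraction (exact 95% interval 59.1 to 61.8, which covers counting error only, here and below). At the limit, 4 members lay 2501 bp from H3K4me3, among them chr5:81050101-81051000, and the 3 nearest regions outside it lay at 2476 bp, among them chr1:45787626-45788000. The member had heights of 30.7, 30.5, 17.6 and 21.5, and the region outside it 40.6, 68.7, 18.95 and 45.1.

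The S-phase list, the shortest of the 4 H3K27ac lists with 10268 peaks, set membership more than the others. Distal regions without H3K27me3 numbered 13143, 18274, 5415 and 10355 in the 4 fractions. Members made up 23.5%, 16.9%, 57.1% and 29.9% of them. Among the 2626 distal regions listed in exactly 3 fractions, 1743 lacked S alone, 438 early G1, 340 G2/M and 105 late G1. Without the S-phase list, 4847 regions met the rule instead of 3092. The depth behind each list is unknown, and its part in these counts was not tested.

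A distal constant region was typically shorter than 1 kb. The merged regions measured 150 to 5825 bp, with a median of 800 bp and quartiles of 600 and 1125 bp. Merging adds peaks of 4 lists, so the length covered in each fraction is a separate measure. The median length covered was 600, 613, 300 and 525 bp in the 4 fractions. Regions of all 4 fractions near H3K4me3 (1955 regions, within 2.5 kb and free of H3K27me3) covered a median of 675, 600, 250 and 475 bp. The S-phase peaks were the shortest in both kinds of region.

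Most distal constant regions shared a stretch of acetylated bases among all fractions. Such a stretch was found in 2650 of them (85.7%), with a median length of 225 bp. In the other 442, peaks of different fractions were joined only through one another, with no base covered in all 4. A single peak in every fraction was found in 1343 regions (43.4%), and in the rest at least 1 fraction had the region split into several peaks, up to 9 in S. The positions of the peak maxima spread over a median of 259 bp between fractions (quartiles 148 and 439 bp). The spread near H3K4me3 was 256 bp.

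Taller members were generally wider, with median widths of 550, 750, 875 and 1200 bp in 4 equal classes of mean relative height from low to high. Among the 5 widest, 3 had mean relative heights of 1.62 to 1.85 and 2 lay below 1. The longest, chr10:18853026-18858850 (5825 bp), had deposited heights of 26.4, 48.3, 15.5 and 14.9. Its neighbour chr10:18847251-18851875 (4625 bp) was also among the 5 widest and had heights of 24.01, 52.4, 14.9 and 15.7. Both stood out in late G1 and were low in the other fractions, and neither overlapped H3K4me1. In contrast chr8:30250101-30255225 (5125 bp) had heights of 62.8, 50.96, 39.8 and 46.4, well above the medians of the members in each library.

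Height is the authors' deposited value for the top of a peak, in a scale that the labels do not state. It was 0 for every peak on the chromosomes coded 22 to 24, so heights below cover 2923 members on chromosomes 1 to 21. The early G1 heights of the members had a median of 35.4 (lowest 17.96, highest 101.9), and the late G1 heights one of 34.2 (18.1, 158.4). The S-phase heights had a median of 16.9 (10.4, 63.4), and the G2/M heights one of 24.1 (13.5, 104.8). The ranges overlap in all fractions, and the medians follow the level of each list as a whole, whose medians were 25.8, 23.1, 14.97 and 17.99. In S, 945 members (32.3%) stood below the median of the whole list, against 499, 217 and 453 in early G1, late G1 and G2/M.

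To set fractions side by side, each height was divided by the median of its own library over all regions listed in all 4 fractions. Since the members are most of those regions, their medians on this scale lie near 1 by construction. The median relative height of the distal constant regions was 0.945, 0.977, 0.998 and 0.993. That of the regions near H3K4me3 was 1.13, 1.03, 1.001 and 1.01. The gap between the classes was widest in early G1, where the regions near H3K4me3 stood tallest.

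**Figure D1:**
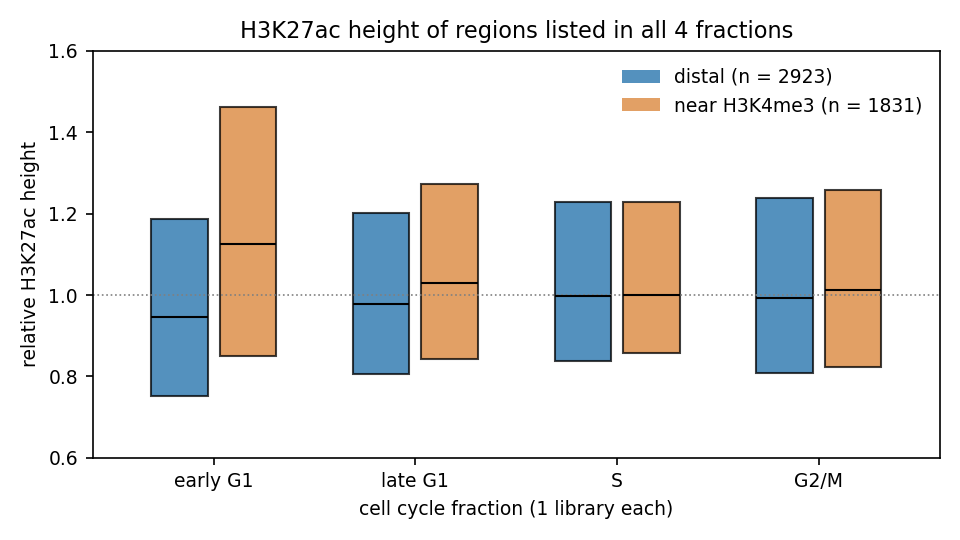
Relative H3K27ac height (deposited height over its library's median among constant regions) of distal constant regions and of constant regions near H3K4me3, by fraction. Boxes span the quartiles over regions and the line is the median; the distal median is 0.945 in early G1, against 1.13 near H3K4me3, and the 2 classes nearly coincide in S.

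On this scale, the distal constant regions kept their heights closer together across the cycle than the constant regions near H3K4me3 did. The members are most of the regions that set the scale. This holds their medians near 1 in each library and so can narrow their spread. The spread was not recomputed on another scale. The highest of the 4 relative heights was a median of 1.49 times the lowest in distal regions (quartiles 1.33 and 1.70), and 1.59 times near H3K4me3 (1.39 and 1.88). All 4 values lay within 1.5-fold of each other in 51.3% of the distal regions, against 39.5% of those near H3K4me3. A spread of at least 2-fold was seen in 238 distal regions (8.14%) and in 340 near H3K4me3 (18.6%). Early G1 was the highest fraction in 21.2% of the distal regions and in 41.9% of those near H3K4me3, and the lowest in 38.04% of the distal regions and 24.9% near H3K4me3. The rank order of members held only in part from one library to another. Spearman's rho over members was 0.449 between early and late G1 and 0.565 between late G1 and S, given as a description, since regions of one library share its depth and antibody.

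The steps between neighbouring fractions were taken on the relative scale, which holds the members' median step near 0 because the members are most of the regions that set it. The median log2 ratio of relative height was 0.06 for late over early G1, 0.08 for S over late G1, -0.05 for G2/M over S and -0.09 for early G1 over G2/M. Each of these is well inside the spread between regions, whose quartiles for late over early G1 were -0.26 and 0.36. The signs depend on the scaling: with heights as deposited all 4 medians changed sign. The ratio between the classes does not depend on it, because the constant of a library cancels.

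Relative to the constant regions near H3K4me3, the distal ones were lower in early G1 than in the fractions on either side of it. The median step from early to late G1 was 0.06 in distal regions and -0.15 near H3K4me3, a difference of 0.21 on the log2 scale. The median step from G2/M to early G1 was -0.09 in distal regions and 0.13 near H3K4me3, a difference of -0.22. For S over late G1 the medians were 0.08 in distal regions and 0.00 near H3K4me3, and for G2/M over S they were -0.05 in distal regions and -0.03 near H3K4me3. Taken chromosome by chromosome, the late over early G1 step was larger in distal regions on 19 of 21 chromosomes. The early G1 over G2/M step was larger on 2 of 21. All chromosomes share the same libraries, and early G1 is 1 library, so the fraction and its library cannot be told apart.

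**Figure D2:**
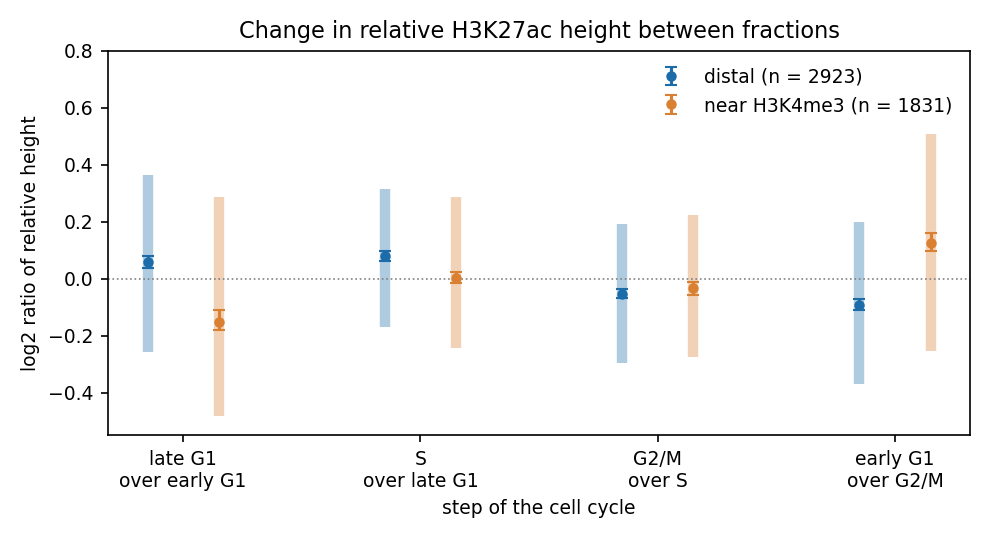
Log2 ratio of relative H3K27ac height between neighbouring fractions for distal constant regions and constant regions near H3K4me3. Points are medians with their exact 95% intervals over regions and bars span the quartiles; the classes separate for both steps that involve early G1, with distal medians of 0.06 and -0.09, against -0.15 and 0.13 near H3K4me3.

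Changes of at least 1.5-fold in relative height were found in 3.73% to 12.3% of the distal regions, depending on the step and direction. For late over early G1, 359 of 2923 distal regions were higher (12.3%) and 239 lower (8.18%), where 12.46% of all 4817 constant regions with heights were higher and 12.54% lower. For S over late G1, 240 distal regions were higher (8.21%) and 109 lower (3.73%), beside 7.930% and 4.899% of all. For G2/M over S, 145 were higher (4.96%) and 176 lower (6.02%), beside 4.920% and 6.228% of all. For early G1 over G2/M, 168 were higher (5.75%) and 359 lower (12.3%), beside 11.60% and 12.12% of all. The shares of distal regions were close to the background except for late G1 lower than early G1 and early G1 higher than G2/M, where they were smaller. All constant regions include the distal ones, and all values come from the contrasts that the rule used, so they are descriptions.

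A few distal regions changed far more than the rest. The largest ratio of late over early G1 belonged to chr16:14144776-14145725, with heights of 43.5, 158.4, 48.05 and 55.2, a log2 ratio of 1.96. Next was chr20:55379826-55380775, with 22.2, 80.4, 20.9 and 33.4 and a ratio of 1.95. Both were highest in late G1. The region on chromosome 16 also stood above the library medians in S and G2/M, at relative heights of 2.83 and 2.27, against 4.52 in late G1. On chromosome 20 deposited heights follow the deposited scores less closely than on chromosomes 1 to 19 (in late G1 a rank correlation of 0.857, against 0.974 to 0.982). At the chromosome 20 region itself, the late G1 height and score stood at the 99.9th and 99.95th percentiles of the list. The smallest ratio belonged to chr2:85184051-85185275, with 95.8, 27.8, 23.6 and 39.9 and a ratio of -1.69. There early G1 stood above the other 3 fractions, as it did at chr15:65587876-65588450, with 76.3, 25.3, 12.2 and 16.2. The 3 members with the smallest late over early G1 ratios lay 7926 to 10901 bp from the nearest H3K4me3 peak.

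The members lowest in early G1 relative to G2/M carried H3K4me1 as well. The lowest ratio of early G1 over G2/M was -2.46, at chr1:214204151-214204600, with H3K27ac heights of 29.3, 61.5, 59.2 and 104.8. Its H3K4me1 heights were 24.5 in early G1, 41.3 in S and 50.8 in G2/M, with no H3K4me1 peak in late G1. The next was chr2:112221101-112221600, with H3K27ac heights of 22.7, 45.8, 39.8 and 73.7 and H3K4me1 heights of 15.9, 24.5 and 36.9 from late G1 to G2/M, with none listed in early G1. After it came chr11:19975101-19975600, with H3K27ac heights of 35.1, 71.3, 34.8 and 87.5 and H3K4me1 heights of 12.4, 22.4 and 28.6 in the same 3 fractions. All 3 are 450 to 500 bp long and tallest in G2/M for both marks.

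Among the tallest members, the shape of the profile across fractions varied. Rank by mean relative height put chr16:71060551-71063525 first, with heights of 86.5, 77.4, 63.4 and 64.4 and a mean of 2.73 times the library medians. It was the tallest member in S and carried H3K4me1 in all 4 fractions, and it lies 122.9 kb from H3K4me3. Rank 2 was the region on chromosome 16 described above for late G1. Rank 3, chr5:79479551-79481525, had 59.7, 120.8, 49.6 and 62.1. Rank 4 was the 450 bp region on chromosome 1 that peaked in G2/M.

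Rank 5, chr8:130525926-130529600, had heights of 71.7, 90.2, 49.6 and 66.2 and lies 421.1 kb from the nearest H3K4me3 peak, farther than the other 11 of the 12 tallest. Rank 6, chr6:74288451-74291375, had 97.5, 73.04, 36.9 and 66.9. Rank 7, chr12:31538051-31541075, had 99.3, 82.97, 42.7 and 49.1. Relative to the library medians, the highest fraction was S at ranks 1 and 5, with 3.73 and 2.92, late G1 at ranks 2 and 3, with 4.52 and 3.45, G2/M at ranks 4 and 6, with 4.31 and 2.75, and early G1 at rank 7, with 2.66. As deposited, ranks 1 and 6 were tallest in early G1 and rank 5 in late G1.

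Ranks 8 to 12 had mean relative heights of 2.23 to 2.36. Rank 8, chr5:74178851-74179850, had heights of 43.1, 101.6, 35.9 and 80.01, and rank 9, chr17:26497476-26499275, had 53.4, 57.95, 56.9 and 68.7. Rank 10, chr18:9642301-9645100, had 74.6, 71.7, 48.95 and 54.98, and rank 11, chr1:233247876-233250775, had 96.7, 80.6, 35.8 and 50.9. Rank 12, chr12:79941176-79943000, had 80.1, 82.7, 41.7 and 47.9. Rank 9 differed from ranks 8, 10, 11 and 12 in having an S-phase height near those of both G1 fractions, although S heights are lower in the list as a whole. The lowest member of all, chr9:112580526-112580675, was 150 bp long with 20.4, 18.6, 13.5 and 14.1. In early and late G1 its heights lay close to the 5th percentiles of the lists, 19.9 and 18.3.

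**Figure D3:**
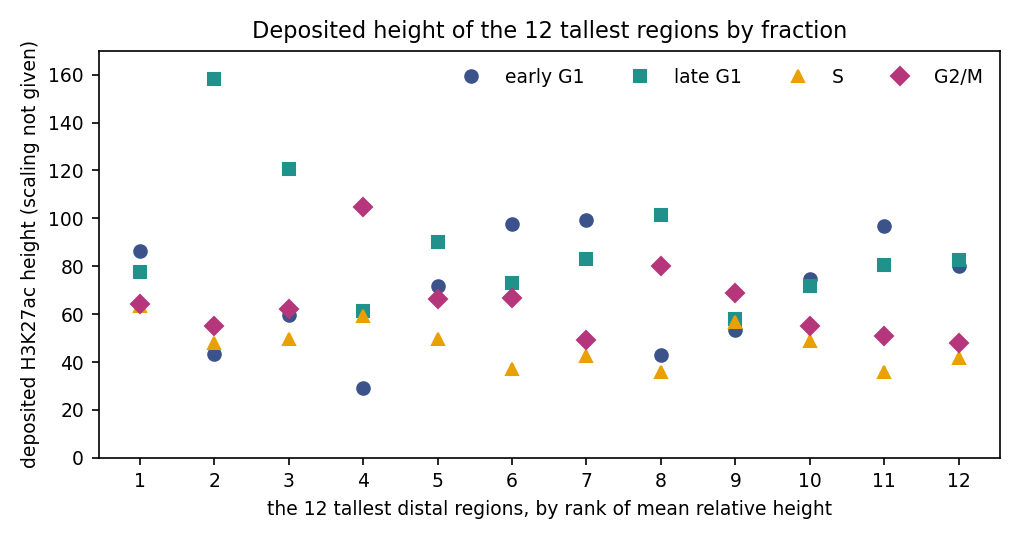
Deposited H3K27ac height of the 12 distal constant regions with the greatest mean relative height, in each fraction. Ranks 2 and 3 stand out in late G1 (158.4 and 120.8) and rank 4 in G2/M (104.8), while ranks 1, 6, 7, 10 and 11 are tallest in early G1 as deposited; relative to the library medians, ranks 1 and 10 are highest in S and rank 6 in G2/M.

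H3K4me1 was not used to choose the regions, and it was found more often at distal constant regions than at the other kinds of H3K27ac region. An H3K4me1 peak of at least 1 fraction overlapped 989 of 3092 distal constant regions (32.0%, 30.3 to 33.7). The share was 18.01% (16.6 to 19.5) in distal regions listed in 3 fractions, 13.8% (12.8 to 14.8) in those of 2 and 7.86% (7.47 to 8.26) in those of 1. It was 11.2% (9.84 to 12.7) in constant regions near H3K4me3, which have a similar width, with a median of 825 bp. Regions listed in fewer fractions are shorter, with medians of 475, 300 and 150 bp, and have less room for an overlap. In windows of fixed size, 250 bp to each side of the strongest maximum, the share was 23.6% (22.1 to 25.2) at distal constant regions. It was 16.2% (14.8 to 17.7), 15.2% (14.1 to 16.3) and 11.8% (11.3 to 12.3) at distal regions of 3, 2 and 1 fractions, and 5.90% (4.86 to 7.08) near H3K4me3. The distal classes kept their order with smaller gaps, while the regions near H3K4me3 came below those of 1 fraction. The classes were not matched for H3K27ac height, and among members the share with H3K4me1, scored over whole regions, rose with height (below). Whether height accounts for the order of the classes was not tested.

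The order found with whole regions held in each H3K4me1 library on its own. The share of distal constant regions with H3K4me1 was 6.31%, 9.22%, 17.5% and 15.3% in the 4 lists. These shares follow the length of the H3K4me1 lists, which held 1878, 4017, 6280 and 6156 peaks, so they do not compare fractions. In distal regions of 3 fractions the shares were 3.73%, 4.80%, 7.77% and 7.50%, and near H3K4me3 they were 1.995%, 3.53%, 5.83% and 4.96%. The distal constant regions were higher in 4 of 4 libraries against each class. They were so in the fixed windows too, by less: in early G1 4.17%, against 3.27% in distal regions of 3 fractions. In the G2/M windows, distal regions of 3 fractions (6.58%) came below those of 2 (6.93%). An exact two-sided sign-flip permutation test over the 4 libraries gave p = 0.125, the smallest that 4 pairs allow. The test therefore cannot decide whether the classes differ. The 4 libraries are also different fractions scored on the same regions, not replicates.

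**Figure D4:**
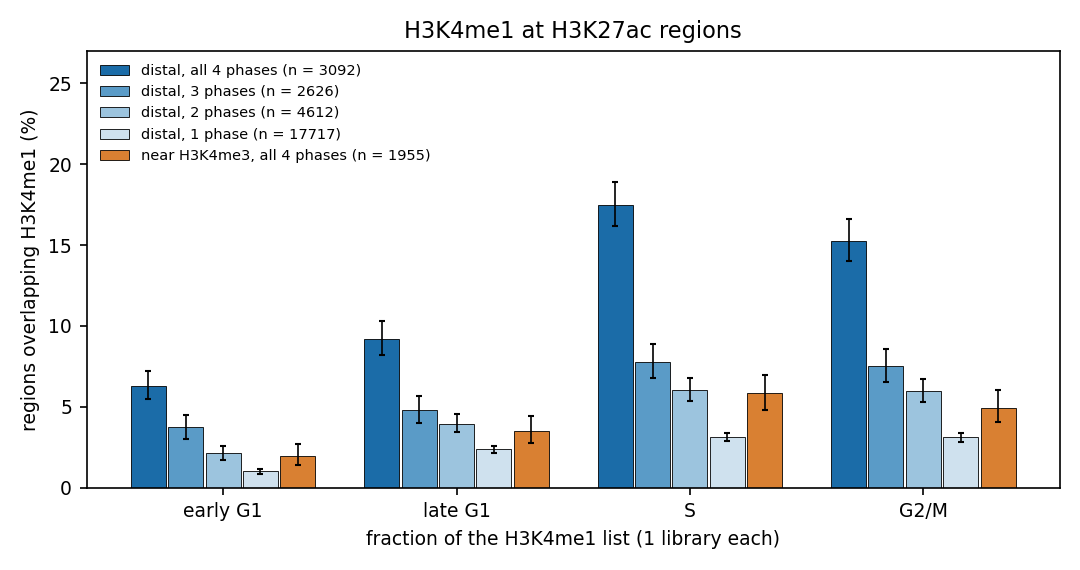
Share of H3K27ac regions that overlap an H3K4me1 peak, by fraction of the H3K4me1 list and class of region; error bars are exact 95% intervals over regions. The distal constant regions lie above every other class in each fraction, from 6.31% in early G1 to 17.5% in S.

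Most members with H3K4me1 had it in 1 fraction. The early G1 list overlapped 195 members and the S list 541, which limits how many can be marked in all 4 fractions. The split below therefore does not show whether the mark comes and goes over the cycle. No H3K4me1 peak was listed at 2103 members, 626 had it in 1 fraction, 244 in 2, 97 in 3 and 22 in all 4. The members with more of it were taller: the median relative height was 0.956, 1.01, 1.09, 1.14 and 1.30 from 0 to 4 fractions. They were also wider, with a median of 750 bp at 0 fractions and 1250 bp at 4. In 4 equal classes of mean relative height, from low to high, 24.4%, 28.5%, 30.4% and 45.3% of the members had H3K4me1. Overlap was scored over whole regions here, and the median widths of these classes rose from 550 to 1200 bp. The taller classes thus had more room for an overlap, and height and width were not separated by fixed windows. Among those marked in all 4 fractions were chr16:22644401-22648175, with H3K27ac heights of 73.2, 58.6, 34.2 and 54.03, and chr7:7248251-7250300, with 57.8, 58.1, 36.9 and 50.03. The 22 were not spread evenly over the genome. Several lay close together on chromosome 1, around chr1:144982301-144983650, which had heights of 62.3, 42.7, 27.2 and 31.4. The height and width at 4 fractions thus rest in part on this stretch. Whether they hold without it was not tested. Read from the other side, 13.7%, 9.26%, 12.1% and 10.1% of the distal H3K4me1 peaks of the 4 lists lay in the distal constant regions, which together span 2.97 Mb.

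The distal constant regions mostly lay far beyond the 2.5 kb limit. The median distance to the nearest H3K4me3 peak was 46.9 kb (quartiles 17.3 and 104.1 kb), 488 members (15.8%) lay within 10 kb and 804 (26.0%) beyond 100 kb. Distal regions listed in 1 fraction had a similar median of 43.9 kb. Distance went with little else: from the nearest to the farthest of 4 classes (2.5 to 10, 10 to 50, 50 to 100 and over 100 kb) the median relative height was 1.02, 0.987, 0.969 and 0.957. The share with H3K4me1 was 32.2%, 30.6%, 35.4% and 31.5%. The rule removed overlap with H3K27me3, and the median distance to it was 161.8 kb, against 148.6, 145.6 and 145.6 kb in distal regions of 3, 2 and 1 fractions. Within 10 kb of it lay 4.69% of the members, against 5.26%, 6.25% and 5.72% in those classes and 7.52% near H3K4me3.

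Chromosomes differed in how much of their constant acetylation was distal. Of the regions listed in all fractions, the distal constant ones were 27.8% on chromosome 19 (32 of 115, 19.9 to 36.95) and 42.2% on chromosome 17 (49 of 116, 33.1 to 51.8). At the other end stood chromosome 8 with 78.1% (168 of 215, 72.01 to 83.5), chromosome 21 with 74.0% (37 of 50, 59.7 to 85.4) and chromosome 18 with 72.03% (85 of 118, 63.02 to 79.9). Chromosomes 17 and 19 are known to be rich in genes and chromosomes 18 and 21 poor in them. Gene density was not measured here for these or for chromosome 8, which had the highest share given. A link between gene density and the share was not tested. On the remaining chromosomes with heights the share ran from 53.6% to 67.03%.

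Within 12500 bp, the distance commonly used to join neighbouring enhancers into larger units, 1622 members (52.5%, 50.7 to 54.2) had another member. They formed 715 clusters, of which 580 held 2 members, 96 held 3 and 39 held 4 or more. Most of this was very close spacing. The nearest member lay within 500 bp for 1331 of them, 82.1% of those within 12500 bp, at a median distance of 176 bp (quartiles 101 and 276 bp). Only 291 had their nearest member between 500 bp and 12500 bp away, while 1112 (36.0%) had none within 100 kb. Joining members within 500 bp of each other left 2393 elements, and 16.3% of these (14.8 to 17.8) lay within 12500 bp of another.

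A member with another within 500 bp was taller than one with none within 12500 bp, with a median relative height of 1.07 (quartiles 0.907 and 1.28) against 0.925 (0.813 and 1.10). H3K4me1 was found at 32.2% of the close members (29.7 to 34.7) and 30.7% of the lone ones (28.3 to 33.1), a difference within counting error. Lone here means without another member: 89.6% of all members had some other H3K27ac region within 500 bp and 95.4% within 12500 bp. Within 12500 bp the share was 92.4%, 87.1% and 79.05% in distal regions of 3, 2 and 1 fractions, and 93.9% near H3K4me3. Within 500 bp it was 80.9%, 68.2% and 52.4% in those distal classes, and 80.7% near H3K4me3.

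**Figure D5:**
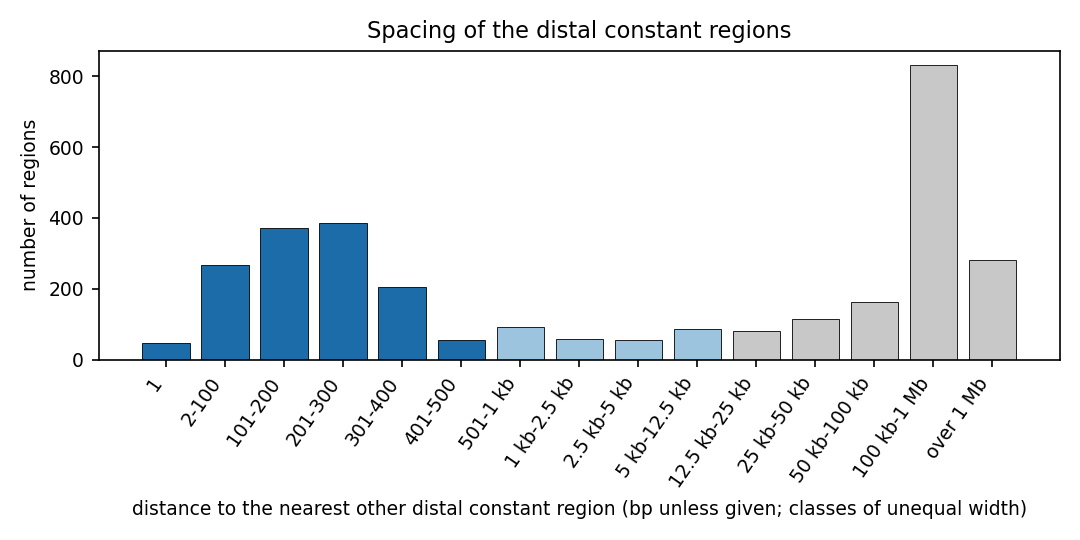
Number of distal constant regions by distance to the nearest other one, in classes of unequal width; dark bars are up to 500 bp, light bars up to 12500 bp and grey bars beyond. The 1331 regions in the dark bars make up most of those within 12500 bp.

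The largest cluster held 7 members over 17 kb at chr10:88615426-88632425. Its members covered 10.6 kb, 4 of them overlapped H3K4me1, and their mean relative heights ran from 0.785 to 1.86. The nearest H3K4me3 peak lay 96.03 kb from it, and its median relative heights were 1.09, 1.01, 1.17 and 1.30. Of 4 clusters with 6 members, chr4:113667051-113681600 spanned 14.6 kb and chr5:116146151-116160200 spanned 14.1 kb. The cluster on chromosome 4 had median relative heights of 1.10, 0.976, 1.09 and 1.03, and that on chromosome 5 had 0.820, 0.993, 0.997 and 1.11. In all 3 clusters some members stood below the library medians while others were well above them.

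The 4C viewpoints give the only genes that the labels tie to a place. GATA6 and SOX17, which encode transcription factors of endoderm, each had 1 distal constant region within 1 Mb of the viewpoint. Chromosomes 18 and 8 held 85 and 168 in all, and whether 1 is few for windows of this size was not tested. The site with the most GATA6 reads, the same in all 4 libraries, lies at position 19758344 of chromosome 18. The nearest distal constant region, chr18:20749076-20749675, lay 990.7 kb away and was the only one within 1 Mb, and the next lay 5052.5 kb away. Its heights were 39.7, 31.6, 14.4 and 24.9, with no H3K4me1. The SOX17 site lies at position 55373264 of chromosome 8. Its nearest region, chr8:55794026-55794400, lay 420.8 kb away with heights of 34.3, 31.9, 14.4 and 28.2, again the only one within 1 Mb and without H3K4me1.

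Beyond 1 Mb from the viewpoint, restriction sites inside distal constant regions were compared with those in other distal H3K27ac regions and outside any. For SOX17, 67 sites lay in members, and reads were found at 58.2% (45.5 to 70.2), 56.7% (44.04 to 68.8), 62.7% (50.01 to 74.2) and 44.8% (32.6 to 57.4) of them. At the same distances, 54.2%, 48.5%, 60.8% and 39.01% of sites in distal regions of fewer fractions had reads, and 45.4%, 37.3%, 49.2% and 25.6% of sites outside any H3K27ac region. The share in members was above that outside in 4 of 4 libraries. The lower bound of its interval lay just above the outside share in early G1 and S, and further above it in late G1 and G2/M. For GATA6, 27 sites lay in members, and 55.6%, 51.9%, 59.3% and 37.04% had reads. The shares were 58.2%, 52.4%, 62.8% and 41.9% in distal regions of fewer fractions and 46.5%, 46.4%, 52.4% and 32.6% outside. Against the other distal regions, members were thus higher in 4 of 4 libraries for SOX17 and lower in 4 of 4 for GATA6, each time within the members' intervals. The same sites were scored in all 4 libraries of a viewpoint, so 4 of 4 is not a count of independent agreements. The intervals treat sites as independent. With intervals as wide as 35.3 to 74.5 in early G1, no difference was detectable for GATA6 at this number of sites. The SOX17 libraries held 10719725, 10675688, 7491195 and 15566252 reads. For both viewpoints the share in members was highest in S, the library with the fewest reads, and lowest in G2/M, that with the most. The shares therefore do not compare fractions.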

How the data were processed

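ChIP-seq for 4 histone marks and 4C-seq from 2 viewpoints were measured in 4 sorted fractions. Groups came from the labels, with 1 library each. The submitters' processing notes name Bowtie 0.12.7 and 2 builds, hg19 and mm9, with no role for any of them. Coordinates stand as in the deposited lists, taken to be hg19. How peaks were called, and whether inputs were subtracted, is not stated. Inputs were not analysed here.

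Peaks were called per library. The deposited signal in column 6 is used as height, and the deposited score in column 7, more negative for taller peaks, ranks peaks for the stricter lists; other deposited columns gave the peak length and the place of its maximum within the peak. The deposited 4C counts are whole reads per restriction site. No per-sample column was left unused.

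Distances are differences between edge positions, so touching peaks are 1 bp apart. Clusters join members at most 12.5 kb apart. Intervals are exact (Clopper-Pearson for shares, order statistics for medians), except for a difference of 2 medians. That interval runs between opposite ends of the intervals of the 2 medians and is not exact. All intervals assume independent regions or sites and hold no error beyond counting. Reads of 4C come from PCR. 4C shares of other sites were weighted to the distance classes of the sites in members. The region functions were tested on simulated data. Python 3.11.15, numpy 2.4.6, pandas 2.3.3, scipy 1.17.1 and matplotlib 3.10.9 were used.

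Regions named in the text are the 12 tallest, the lowest, those beside the 2.5 kb limit, the widest, those with most H3K4me1, the extremes of each step and the largest clusters; the text gives a part of them. The members, the rule and the comparisons were chosen with earlier results of these data known. Planned lists of genes and sequence motifs were not tested, since no annotation or genome of hg19 was used here. Alternatives were other limits of distance, H3K27me3, list length, peak length, height scale and joining distance.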

Additional observations from a re-analysis of the deposited data

How the results depend on the processing

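Of 135 values recomputed in the reported unit under other settings, 99 stayed within the interval of the reported value (for counts, within 1.5 times), 32 moved beyond it and 4 changed sign. Of 8 steps recomputed as ranks, 6 kept their sign and 2 did not. The difference in step between distal regions and those near H3K4me3 kept its sign in every setting tried, at 0.18 to 0.25 (log2) for late over early G1 and -0.26 to -0.19 for early G1 over G2/M. Heights as deposited could not change this difference, since the constant of a library cancels, yet those values are counted among the 99. For G2/M over S the interval of the reported difference spanned 0 (-0.0567 to 0.0188). Intervals of a difference run between opposite ends of 2 median intervals. They are wide, which makes it easier for a value to stay within them. With heights as deposited, the members' 4 median steps became -0.0349, -0.97, 0.46 and 0.53, because the division by the library medians is left out. As ranks within each list, S over late G1 became -13.8 and G2/M over S 7.44 percentile points; the lists differ in length.

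The upper part of each list by score gave 1634 regions, a median width of 950 bp, 43.9% within 12500 bp and 36.8% with H3K4me1. Equal numbers of peaks gave 1705, 950 bp, 46.6% and 33.8%, with steps of 0.0333 for S over late G1 and -0.00716 for G2/M over S. Peaks of at least 200 bp gave 1915, 950 bp, 45.9% and 36.7%, with steps of 0.0603, -0.0379 and -0.0672 for the last 3 steps. A stretch common to all fractions gave 850 bp and 50.04%. Joining within 5 or 25 kb gave 49.7% and 55.05%, and H3K4me1 within 1 kb 46.8%. The cause of these shifts was not tested.

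Added after seeing the data, joining H3K27ac regions within 500 bp before applying the rule gave 2622 regions of 1800 bp, 14.3% within 12500 bp, 42.9% with H3K4me1 and an early G1 over G2/M step of -0.11. Without the S-phase list, 4847 regions of 675 bp had 58.9% within 12500 bp and 25.5% with H3K4me1, with steps of 0.0919 for late over early G1 and -0.14 for early G1 over G2/M. Leaving out chromosomes 20 and 21, where the rank correlation of height and score (0.857 to 0.918 and 0.940 to 0.973) lay below that of chromosomes 1 to 19 in each library, moved no step beyond its interval. No paired analysis was possible because each group has 1 library.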
